A study of Mus musculus with 76 samples.

Results

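The genes described here are Trp53, which encodes the transcription factor p53, and 9 genes that p53 is known to switch on: Mdm2, Cdkn1a, Ccng1, Bax, Bbc3, Aen, Zmat3, Eda2r and Phlda3. They were taken by gene symbol from the 55536 genes of the count table, and all 10 were found. The set was chosen because the 4T1 line is known as p53-deficient and the CT26 line is not. The choice was made with earlier results of these data known. Each p53 status is held by a single line here, and the tumors of a line are repeats of that line. In a line difference, p53 status therefore cannot be told apart from tissue of origin or any other line trait.

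In a healthy cell p53 is made and destroyed without pause. DNA damage and other stresses stabilize it, and it then binds response elements near its target genes and raises their transcription. Its targets stop the cell cycle, start apoptosis, help repair, and through the ubiquitin ligase Mdm2 bring p53 itself down again.

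The study asked whether catalase, an enzyme that breaks down hydrogen peroxide, changes gene expression in mouse tumors when it is held outside or made inside the tumor cells. Bulk RNA of whole tumors was counted by 3′ digital gene expression in 38 tumors, each with 2 technical libraries, in 7 groups of 5 or 6 tumors. The tumors were grown under the skin of the right flank of female Balb/c mice. Because the tumors were taken whole, RNA of host cells was counted too, and 3′ counts show neither a mutation in the Trp53 coding sequence nor the p53 protein.

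CT26 is a colorectal carcinoma line and 4T1 a mammary carcinoma line. Each parental line had a group injected on day 6 with 100 µg of alum alone (5 CT26 tumors, 5 4T1 tumors) and a group injected with 20 µg of CAT-ABP on 100 µg of alum (6 CT26 tumors, 6 4T1 tumors). CAT-ABP is catalase joined to an alum-binding peptide, which holds it on the injected particles. 4T1-CAT cells carry a lentiviral, doxycycline-inducible human catalase with GFP, and 4T1-control cells carry inducible GFP alone; both were puromycin-selected and sorted for GFP, and their mice received doxycycline from day 4. The groups were 5 4T1-CAT tumors on alum, 5 4T1-CAT tumors on CAT-ABP and alum, and 6 4T1-control tumors on alum. All tumors were harvested on day 8. These days are those of the sample labels; the study's paper gives each of them as 1 day later. In what follows, "4T1-derived" covers the 27 tumors of the 5 groups other than CT26. Each tumor's libraries summed to between 493044 and 9077549 counts, with a median of 4827388. The libraries fell into 4 groups by the first part of their index tag, called index groups below; no label names a sequencing pool. Levels are given as CPM, the count per 1000000 counts of a tumor after scaling by the trimmed mean of M values (TMM).

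The line labels were checked against 8 epithelial markers, none of them at 0 in every tumor and with Krt18 the most abundant. Their summed level was 41.1 to 84.2 CPM in the 11 CT26 tumors and 1478 to 2894 CPM in the 27 4T1-derived tumors. The lines were apart without overlap, and the CT26 tumors, though of a carcinoma, held little epithelial marker RNA. Host cell markers differed between the lines as well. The 5 T cell markers, with Cd3g the most abundant, summed to 62.1 to 132 CPM in CT26 and 13.5 to 79.7 CPM in 4T1-derived tumors; the parental 4T1 tumors reached 43.6 CPM, and the overlap came from 1 tumor, 4T1-CAT replicate 5 on alum. The 6 fibroblast markers, led by Col3a1, summed to 1316 to 2577 against 1919 to 5758 CPM, and the 6 macrophage markers, led by Cd68, to 687 to 959 against 488 to 1012 CPM. The macrophage sums of the parental lines did not overlap within a treatment, by a narrow margin on alum (687 against 684 CPM) and on CAT-ABP (714 against 702 CPM). In both line comparisons 4 of 4 T cell markers tested were called higher in CT26 (median log2 fold change 2.33 on alum and 1.73 on CAT-ABP), and of 6 fibroblast markers 4 were called lower and 1 higher. Of 6 macrophage markers, 2 on alum and 3 on CAT-ABP were called higher and 0 lower. Of all genes, 21.3% were called higher and 21.1% lower on alum, and 21.8% and 23.7% on CAT-ABP. The 5 neutrophil, 4 endothelial, 4 skeletal muscle, 3 erythroid and 3 B cell markers overlapped between the lines, with medians of 86.2 and 94.7, 99.1 and 117, 172 and 165, 97.3 and 81.7, and 0.557 and 0.420 CPM in CT26 and 4T1-derived tumors. Of these, 1 neutrophil, 1 muscle and 1 erythroid marker (of 5, 4 and 2 tested) were called higher on alum, and 2 neutrophil markers higher and 1 endothelial and 1 muscle marker lower on CAT-ABP; no B cell marker was tested. The most abundant genes of these lists were Cxcr2, Pecam1, Acta1, Hbb-bs and Ms4a1, and the B cell gene Cd79a had no count in any tumor. The part of host cells in the results below was not tested.

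Trp53 RNA itself was higher in CT26 than in 4T1 tumors (gene at chr11:69580359-69591873, + strand, GRCm38). In the 5 CT26 tumors on alum it stood at 42.5, 20.9, 39.4, 29.1 and 40.3 CPM, and in the 5 4T1 tumors on alum at 11.5, 16.1, 17.9, 16.3 and 10.6 CPM. In the CAT-ABP groups it ran from 31.2 to 45.3 with a median of 41.2 CPM in CT26 and from 10.9 to 16.7 with a median of 15.6 CPM in 4T1. The 2 lines did not overlap in either treatment, and the lowest CT26 tumor, replicate 2 on alum, was also the least deeply sequenced of the CT26 tumors at 1972842 counts. The engineered lines sat with the parental 4T1, at 12.8, 13.2, 7.46, 12.4 and 10.1 CPM in 4T1-CAT on alum and 10.6, 14, 15.1, 14.2 and 13.4 CPM in 4T1-CAT on CAT-ABP. 4T1-control tumors ran from 4.11 to 18.0 with a median of 12.3 CPM, and their lowest value came from replicate 2, the shallowest tumor of the series, with 2 Trp53 counts. With the alum groups the fitted log2 fold change was 1.28 ± 0.20 (SE, n = 5 and 5), a 2.42-fold higher level in CT26 (adjusted p = 0.000111 in edgeR's quasi-likelihood test, Benjamini-Hochberg adjusted). With the CAT-ABP groups, which share no tumor with the first comparison, it was 1.44 ± 0.15 (SE, n = 6 and 6; adjusted p = 4.04e-07 in the same edgeR test). In bulk RNA, fewer cells that carry a transcript and less of it per cell cannot be told apart. Group means ran, from high to low, 39.8 ± 5.60 CPM (SD) in CT26 on CAT-ABP, 34.4 ± 9.18 in CT26 on alum, 14.8 ± 2.23 in 4T1 on CAT-ABP, 14.5 ± 3.23 in 4T1 on alum, 13.4 ± 1.72 in 4T1-CAT on CAT-ABP, 12.0 ± 4.51 in 4T1-control and 11.2 ± 2.40 in 4T1-CAT on alum. Only the step from CT26 to 4T1 exceeded the larger SD of the neighbouring groups.

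Mdm2, the ubiquitin ligase that marks p53 for destruction and is itself a target of p53, showed a smaller difference (chr10:117688875-117710758, - strand). The CT26 tumors on alum stood at 65.7, 56.5, 47.9, 59.9 and 41.7 CPM and the 4T1 tumors on alum at 27.7, 43.7, 33.8, 38.7 and 28.7 CPM. On CAT-ABP the range was from 39.6 to 65.8 with a median of 50.8 CPM in CT26 and from 25.9 to 37.7 with a median of 33.3 CPM in 4T1. The alum groups overlapped through 4T1 replicate 2 at 43.7 CPM, above the lowest CT26 tumor of its group, while the CAT-ABP groups did not overlap. The 4T1-CAT tumors read 35.9, 33.7, 29.2, 28.5 and 32.7 CPM on alum and 36.9, 25.2, 31.9, 34.1 and 35.5 CPM on CAT-ABP, and the 4T1-control tumors from 20.5 to 38.2 with a median of 26.5 CPM. All 16 tumors of the engineered lines were below every CT26 tumor. The fitted difference was 0.67 ± 0.16 on the log2 scale (SE) on alum and 0.65 ± 0.15 on CAT-ABP (adjusted p = 0.00364 and 0.00149 in edgeR's quasi-likelihood test, Benjamini-Hochberg adjusted). This call did not stand under every scaling: with library totals alone the values were 0.45 and 0.39 (adjusted p = 0.124 and 0.106 in the edgeR test), and with technical library 2 alone the CAT-ABP value was 0.47 (adjusted p = 0.0783). Over all alternatives its adjusted p ran from 0.00032 to 0.124 on alum and from 2.12e-05 to 0.106 on CAT-ABP. Group means fell in the order CT26 on alum, CT26 on CAT-ABP, 4T1 on alum, 4T1 on CAT-ABP, 4T1-CAT on CAT-ABP, 4T1-CAT on alum and 4T1-control, and only the step between the lines exceeded the SD.

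Of 19 other genes that act on p53 or lie beside Trp53, 16 were tested, with 2 called higher in CT26 and 4 lower on alum, and 1 higher and 4 lower on CAT-ABP, beside 21.3% of all genes higher and 21.1% lower, and 21.8% and 23.7%. The genes called, named here after their values were seen, were Rpl11 (higher) and Atr, Crebbp and Rpl5 (lower) in both comparisons, Ep300 (higher) and Cop1 (lower) on alum, and Usp7 (lower) on CAT-ABP. The kinase gene Atr, at -0.92 ± 0.15 and -1.04 ± 0.16 (log2, CT26 over 4T1, SE), stayed called under all 23 alternatives in each comparison, as did Crebbp and Rpl11 on CAT-ABP. The other calls stayed under 13 (Crebbp), 22 (Rpl5), 16 (Rpl11), 7 (Ep300) and 11 (Cop1) of 23 alternatives on alum and 10 (Rpl5) and 5 (Usp7) of 23 on CAT-ABP, with the same sign throughout.

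Mdm4, the relative of Mdm2 that masks the activation domain of p53, differed by 0.28 ± 0.17 and 0.04 ± 0.17 (log2, CT26 over 4T1, SE) on alum and on CAT-ABP. The phosphatase gene Ppm1d, another target that dampens p53 signaling, differed by -0.58 ± 0.29 and -0.02 ± 0.18; the alum value was -0.24 without 4T1 replicate 2, at 22.4 CPM the highest of its group. Neither passed the test in either comparison, the sign of both changed under some alternatives on CAT-ABP, and both overlapped widely, at 17.5 to 29.7 CPM in CT26 against 8.21 to 30.04 CPM in 4T1-derived tumors for Mdm4. Wrap53, whose gene lies 103 bases from Trp53 on the opposite strand without overlapping it, differed by -0.54 ± 0.23 and -0.36 ± 0.20, opposite in sign to Trp53, and did not pass the test (adjusted p = 0.0713 and 0.152 in edgeR's quasi-likelihood test, Benjamini-Hochberg adjusted). It was called lower in CT26 on alum without CT26 replicate 5 (log2 fold change -0.68, adjusted p = 0.0304 in the edgeR test; 0.0234 to 0.579 over all alternatives), with library totals alone and in a model over all 7 groups, and on CAT-ABP with library totals alone (-0.63, adjusted p = 0.0248 in edgeR; 0.0248 to 0.639 over all alternatives). Cdkn2a, which encodes the Mdm2 inhibitor p19Arf, had 0 counts among the 184886327 of all 38 tumors. With all tumors of both lines pooled, this allows a level of up to 0.0162 CPM (3 counts, counting error only). In a single tumor 3 counts stand for 0.33 to 6.08 CPM, depending on its depth. The p53 relatives Trp63 and Trp73 had 72 and 9 counts over all 38 tumors, too few to compare.

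Among the genes that halt the cell cycle, Cdkn1a, which encodes the kinase inhibitor p21, was apart between the lines in all groups (chr17:29090976-29100727, + strand). The CT26 tumors on alum stood at 44.3, 55.5, 45.9, 49.4 and 54.8 CPM and the 4T1 tumors on alum at 12.2, 15.8, 15.7, 11.9 and 21.2 CPM. The CAT-ABP groups ran from 44.9 to 69.3 with a median of 50.4 CPM in CT26 and from 10.01 to 19.4 with a median of 16.3 CPM in 4T1. Every CT26 tumor was above every 4T1 tumor, with no value between 21.2 and 44.3 CPM. The 4T1-CAT tumors read 16.4, 16.5, 15.8, 15.9 and 19.8 CPM on alum and 19.3, 14.8, 10.1, 14.1 and 19.7 CPM on CAT-ABP, and 4T1-control tumors ran from 9.47 to 14.7 with a median of 12.8 CPM. The log2 fold change was 1.73 ± 0.18 (SE) on alum and 1.73 ± 0.16 on CAT-ABP, a 3.32-fold and 3.31-fold higher level in CT26 (adjusted p = 1.3e-06 and 8.04e-08 in edgeR's quasi-likelihood test, Benjamini-Hochberg adjusted). The order of means was CT26 on CAT-ABP, CT26 on alum, 4T1-CAT on alum, 4T1-CAT on CAT-ABP, 4T1 on CAT-ABP, 4T1 on alum and 4T1-control, and only the step between the lines exceeded the SD.

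Ccng1 encodes cyclin G1, which brings a phosphatase to Mdm2 (chr11:40748552-40755311, - strand). It stood at 53.3, 60.3, 63.6, 40.2 and 52.4 CPM in CT26 on alum and at 28.7, 34.8, 27.9, 27.3 and 23.5 CPM in 4T1 on alum. On CAT-ABP it ran from 48.0 to 66.1 with a median of 51.3 CPM in CT26 and from 18.9 to 38.9 with a median of 27.9 CPM in 4T1. The lines did not overlap, but the margin was narrow: the lowest CT26 tumor had 40.2 CPM and the highest 4T1-derived tumor 38.9 CPM. The engineered lines lay between 16.4 and 38.9 CPM. The log2 fold change was 0.95 ± 0.15 (SE) on alum and 0.93 ± 0.15 on CAT-ABP (adjusted p = 0.000122 and 5.8e-05 in edgeR's quasi-likelihood test, Benjamini-Hochberg adjusted). CT26 on alum and on CAT-ABP had the highest means, and the 5 4T1-derived groups below them differed from their neighbours by less than the SD.

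Bax, whose product opens the mitochondrial outer membrane in apoptosis, separated the lines as well (chr7:45461697-45466898, - strand). It stood at 25.6, 18.5, 21.2, 20.3 and 32.5 CPM in CT26 on alum and at 14.5, 12.9, 16, 13.3 and 11.9 CPM in 4T1 on alum. On CAT-ABP it ran from 22.9 to 34.1 with a median of 26.4 CPM in CT26 and from 4.45 to 16.8 with a median of 15 CPM in 4T1. No 4T1-derived tumor reached the lowest CT26 tumor; the engineered lines ran from 2.05 to 16.2 CPM, with the lowest in 4T1-control replicate 2 on a single count. The log2 fold change was 0.81 ± 0.18 (SE) on alum and 0.93 ± 0.17 on CAT-ABP (adjusted p = 0.00187 and 0.000286 in edgeR's quasi-likelihood test, Benjamini-Hochberg adjusted). On alum the call was lost with technical library 2 alone (0.61, adjusted p = 0.0865 in edgeR; 0.000143 to 0.0865 over all alternatives). Both CT26 groups led the order of means, and the 5 others differed from their neighbours by less than the SD.

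Eda2r, which encodes a receptor of the tumor necrosis factor family that binds ectodysplasin A2, had the largest log2 fold change of the members tested in both line comparisons (chrX:97333840-97377216, - strand). The CT26 tumors on alum read 9.59, 3.32, 7.38, 12.3 and 8.30 CPM, while the 4T1 tumors on alum read 0.338, 1.44, 0.189, 0.371 and 0.518 CPM. On CAT-ABP, CT26 ran from 5.79 to 8.32 with a median of 7.32 CPM and 4T1 from 0 to 1.24 with a median of 0.393 CPM, with 1 4T1 tumor at 0. All 11 CT26 tumors were above all 27 4T1-derived tumors, of which the highest was 4T1-CAT replicate 4 on CAT-ABP at 2.27 CPM. The 4T1 values rest on few counts, 0 to 12 per tumor in the parental groups. The log2 fold change was 3.95 ± 0.47 (SE) on alum and 3.31 ± 0.37 on CAT-ABP, 15.5-fold and 9.94-fold higher in CT26 (adjusted p = 7.25e-06 and 1.08e-06 in edgeR's quasi-likelihood test, Benjamini-Hochberg adjusted). Eda2r passed the filter on low counts only in fits that held CT26 tumors, so that its being tested already required a level in CT26. Its means ran CT26 on alum, CT26 on CAT-ABP, 4T1-CAT on alum, 4T1-CAT on CAT-ABP, 4T1-control, 4T1 on alum and 4T1 on CAT-ABP, and only the step between the lines exceeded the SD.

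The other members did not pass the test in the line comparisons as first run. Zmat3, a zinc-finger protein that binds RNA, ranged from 8.51 to 21.4 CPM in CT26 and from 3.96 to 13.9 CPM in 4T1-derived tumors, and its log2 fold changes were 0.75 ± 0.30 on alum and 0.50 ± 0.23 on CAT-ABP (adjusted p = 0.0531 and 0.0824 in edgeR's quasi-likelihood test, Benjamini-Hochberg adjusted). The alum value crossed the threshold without CT26 replicate 5 (0.87, adjusted p = 0.0249 in edgeR), without 4T1 replicate 2 (0.93, 0.0267) and in DESeq2 (0.76, 0.0372), among others, and the CAT-ABP value without CT26 replicate 3 (0.59, 0.0422) or 4T1 replicate 2 (0.71, 0.0226). It fell to 0.35 within shared index groups and 0.36 with index group as a block (adjusted p = 0.505 and 0.512 in edgeR), and the CAT-ABP value to 0.05 with technical library 2 alone (adjusted p = 0.929). Over all alternatives the adjusted p of Zmat3 ran from 0.016 to 0.512 on alum and from 0.0226 to 0.929 on CAT-ABP, on both sides of the threshold. Aen, a nuclease that adds to apoptosis, ranged from 21.4 to 36.6 CPM in CT26 and from 4.11 to 33.8 CPM in 4T1-derived tumors, with log2 fold changes of 0.39 ± 0.19 and 0.23 ± 0.17. It passed on alum only without 4T1 replicate 2 (0.53, adjusted p = 0.0405 in edgeR, 0.0405 to 0.776 over all alternatives) and stood at 0.10 within shared index groups, and the CAT-ABP value turned to -0.04 with library totals alone. For both genes no step in the order of the 7 group means exceeded the SD.

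A last pair was too low for the line comparisons. Phlda3, which encodes a brake on Akt signaling, had 1 to 21 counts in a CT26 tumor and 0 to 10 in a 4T1-derived tumor, 0.475 to 3.34 against 0 to 1.47 CPM, with 5 of the 27 4T1-derived tumors at 0. It fell below the filter on low counts in both line comparisons. On CAT-ABP it passed the filter, and the test, when CT26 replicate 1 or any of the 6 4T1 tumors was left out, with log2 fold changes of 1.40 to 1.63 (adjusted p = 0.0018 to 0.00566 in edgeR). In a model over all 7 groups it was called at 1.51 on alum and 1.49 on CAT-ABP (adjusted p = 0.0171 and 0.0039 in edgeR), and with no filter it was called at 1.46 on CAT-ABP but not at 1.46 on alum (adjusted p = 0.0144 and 0.105 in edgeR). Like Eda2r, Phlda3 passed the filter only in fits that held CT26 tumors, where its level was higher, so these calls are not independent of the filter. Bbc3, which encodes the death activator Puma, had 65 counts over all 38 tumors and 0 to 6 in each, 0 to 1.11 CPM in CT26 and 0 to 1.06 CPM in 4T1-derived tumors. With no filter its log2 fold change was -0.63 on alum and 0.15 on CAT-ABP, opposite in sign, and was not called (adjusted p = 0.686 and 0.926 in edgeR). Its group means differed from their neighbours by less than the SD, while the Phlda3 means of CT26 on CAT-ABP, CT26 on alum and the highest 4T1 group, 4T1 on CAT-ABP, were each apart by just over the SD.

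**Figure D1:**
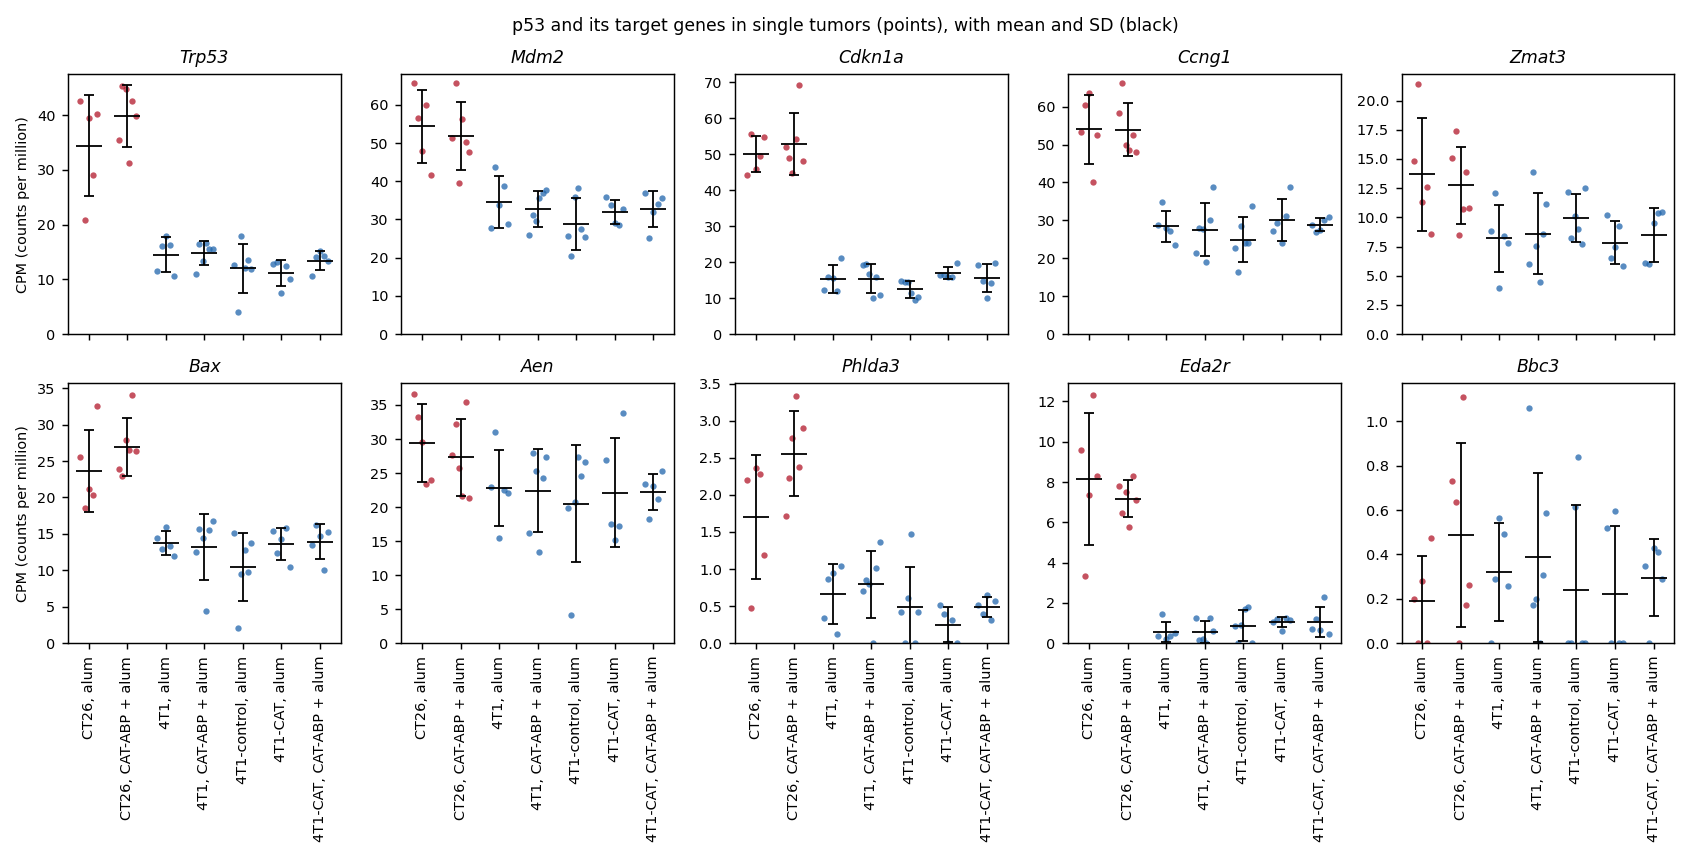
CPM (vertical axes, from 0) of Trp53 and 9 target genes in single tumors (points; red CT26, blue 4T1-derived) of the 7 groups, with the mean and SD of each group in black. For Trp53, Cdkn1a, Ccng1, Bax and Eda2r all 11 CT26 points lie above all 27 4T1-derived points, while Zmat3, Aen, Phlda3 and Bbc3 overlap and Mdm2 overlaps through a 4T1 tumor at 43.7 CPM.

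Over the 7 groups, 9 members passed the filter on low counts, and 5 of them had every CT26 tumor above every 4T1-derived tumor: Trp53, Cdkn1a, Ccng1, Bax and Eda2r. The background share was 5.31%, or 778 of the 14646 genes that passed the same filter. The members were chosen with earlier results of these data known, so the count beside this share is a description. Without 4T1 replicate 2 on alum, Mdm2 joined them as the sixth. With library totals alone, and with technical library 1 alone, the count was 3, since Ccng1 and Bax then overlapped. With technical library 2 alone it was 1, Cdkn1a, and Trp53 and Eda2r overlapped too. The share of all genes without overlap was not counted under these alternatives, so whether the fall was particular to the members was not tested. Leaving aside Eda2r and Phlda3, which passed the filter only where CT26 tumors were in the fit, 4 of 7 members did not overlap.

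In the line comparison on alum, 8 members were tested, 6 were called higher in CT26 and 0 lower, against 21.3% of all genes called higher and 42.4% called in either direction (2727 higher and 2707 lower of 12817). The median log2 fold change was 0.88 over the 8 members and 0.02 over all genes tested. On CAT-ABP the same 6 of 8 were called higher and 0 lower, against 21.8% and 45.5% of all genes (2840 higher and 3088 lower of 13016), with medians of 0.93 and -0.02. The 6 were Trp53, Mdm2, Cdkn1a, Ccng1, Bax and Eda2r, and each stayed called when any single tumor was left out of either comparison. Leaving aside Eda2r, 5 of 7 members were called higher in each. All 8 log2 fold changes were above 0 in both. At unadjusted p under 0.05, 7 of the 8 members passed in each comparison, the seventh being Zmat3, beside 50.2% of all genes on alum and 52.1% on CAT-ABP. Because earlier results of these data were known when the members were chosen, these counts are not independent of the data. Scaling by library totals alone moved the median of all genes to -0.21 on alum and -0.29 on CAT-ABP and the split of calls to 1716 higher and 3529 lower, and 1679 higher and 4463 lower; of the 6 members, all but Mdm2 stayed called higher there.

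Index groups were not shared evenly. All CT26 tumors, all 4T1 tumors on CAT-ABP and 4T1 replicates 1 and 2 on alum lay in the same 2 groups, while 4T1 replicates 3 to 5 on alum and all engineered tumors lay in the other 2. The CAT-ABP line comparison thus lay within the same groups, as did the comparisons of CT26 groups and of engineered groups with each other. Within them, the alum comparison of 5 CT26 tumors with 2 4T1 tumors gave 1.32 for Trp53, 1.82 for Cdkn1a, 0.75 for Ccng1 and 3.12 for Eda2r (log2; adjusted p = 0.00736, 0.000141, 0.0228 and 0.00464 in edgeR's quasi-likelihood test, Benjamini-Hochberg adjusted). Those 4 of 8 members were called, beside 27.4% of all genes; leaving aside Eda2r it was 3 of 7. Mdm2 at 0.59 and Bax at 0.78 kept their direction but missed the threshold (adjusted p = 0.0898 and 0.0533 in the same test). With index group as a block over all 10 tumors, Bax was called at 0.79 and Mdm2 was not at 0.60 (adjusted p = 0.0324 and 0.0605 in edgeR).

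The line difference of the members was not shown to depend on CAT-ABP. The difference of the CAT-ABP effect between CT26 and 4T1 was tested over 14160 genes, with 9 members among them. It was called for 0 members and 0% of genes in edgeR (0 genes, 509 at unadjusted p under 0.05, or 789 without CT26 replicate 5 on alum) and for 0% in DESeq2. For the members it ranged from -0.63 ± 0.65 (log2, SE) for Eda2r to 0.18 ± 0.24 for Trp53, each within a single SE of 0. The same alum tumors serve as controls here and in the line comparison, and the 4T1 ones lay in both sets of index groups.

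CAT-ABP did not move any member past the test. The fits of the catalase comparisons could miss changes of modest size. In simulated counts they recovered 10.4% to 30.4% of genes changed 1.5-fold and 59.4% to 76.4% of genes changed 2-fold. In CT26, 9 members were tested and 0 were called, beside 0% of 12830 genes in edgeR (311 at unadjusted p under 0.05; 789 without CT26 replicate 5 on alum and 655 without CT26 replicate 2 on CAT-ABP) and 0.00779% in DESeq2 (1 gene). Trp53 differed by 0.18 ± 0.17 (log2, CAT-ABP over alum, SE), Cdkn1a by 0.07 ± 0.13 and Mdm2 by -0.08 ± 0.15. The largest difference was that of Phlda3 at 0.47 ± 0.35, from 2.55 CPM on CAT-ABP and 1.70 CPM on alum (adjusted p = 1 in edgeR's quasi-likelihood test, Benjamini-Hochberg adjusted).

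In 4T1, 7 members were tested and 0 were called, beside 0% of 13092 genes in edgeR (377 at unadjusted p under 0.05; 250 without 4T1 replicate 3 on alum) and 0% in DESeq2. The differences were -0.01 ± 0.19 for Trp53, 0.03 ± 0.20 for Cdkn1a and -0.10 ± 0.16 for Mdm2. The largest was that of Zmat3 at 0.14 ± 0.28 (adjusted p = 0.999 in edgeR), which turned to -0.25 with 4T1 tumors of the shared index groups alone. Within those groups Trp53 stood at 0.04, Cdkn1a at 0.14 and Mdm2 at -0.16, again with 0 members called.

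Catalase inside the tumor cells was compared as 4T1-CAT against 4T1-control, both on alum. Of 7 members tested, 0 were called, beside 0% of 12534 genes in edgeR (637 at unadjusted p under 0.05; 319 with technical library 1 alone and 311 with a replicate block) and 0.0479% in DESeq2 (6 genes). The study's paper, also with DESeq2, reported more genes than this for intracellular catalase, and likewise for CAT-ABP in CT26. It left out some technical libraries for low read depth, while none was left out here. The cause of the gap was not tested. The members ran from -0.39 to 0.44 (log2, 4T1-CAT over 4T1-control). Cdkn1a had the largest difference in size at 0.44 ± 0.19 (SE), 16.9 ± 1.67 CPM (SD) against 12.4 ± 2.36 CPM. All 5 4T1-CAT tumors were above all 6 4T1-control tumors, which held for 1 of the 7 members and 0.543% of all genes (68 of 12534), and Cdkn1a passed at unadjusted p under 0.05 but not after adjustment (adjusted p = 0.926 in edgeR's quasi-likelihood test, Benjamini-Hochberg adjusted). Without 4T1-CAT replicate 5, the tumor with the highest Cdkn1a of its group, the difference was 0.37. Host cell markers differed in the same comparison: at unadjusted p under 0.05 were 4 of 6 fibroblast, 3 of 5 neutrophil, 3 of 4 T cell and 3 of 4 muscle markers tested, with median log2 fold changes of 0.44, 0.73, 0.97 and 1.42, and 0 of them were called after adjustment. Their part in the Cdkn1a difference was not tested. Trp53 differed by -0.23 ± 0.22 and Mdm2 by 0.06 ± 0.16.

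CAT-ABP given to 4T1-CAT tumors gave 0 of 7 members called, beside 0% of 13093 genes in edgeR (2000 at unadjusted p under 0.05; 254 with technical library 2 alone) and 2.03% in DESeq2 (266 genes), none of them a member. Trp53 had the largest difference of the members at 0.24 ± 0.18 (log2, CAT-ABP over alum, SE; adjusted p = 0.519 in edgeR's quasi-likelihood test, Benjamini-Hochberg adjusted), while Cdkn1a differed by -0.11 ± 0.18 and Mdm2 by 0.03 ± 0.12. Of the host cell markers tested, 2 of 4 T cell, 2 of 4 muscle and 2 of 6 fibroblast markers were at unadjusted p under 0.05, with median log2 fold changes of -0.67, -0.61 and -0.39, and 0 were called after adjustment. The last comparison, 4T1-control against parental 4T1 on alum, sets lines apart that differ in vector, selection, sorting and doxycycline, whose parts cannot be told apart. Again 0 of 7 members were called, beside 0% of 12431 genes in edgeR (1307 at unadjusted p under 0.05; 652 and 419 with technical library 1 or 2 alone) and 0.129% in DESeq2 (16 genes). Zmat3 had the largest difference at 0.36 ± 0.26 (adjusted p = 0.703 in edgeR), from 0.16 to 0.57 on leaving out 1 tumor and from 0.07 with technical library 2 alone to 0.67 against 4T1 replicates 3 to 5 of the same index groups. Trp53 differed by -0.14 ± 0.21, Cdkn1a by -0.31 ± 0.21 and Mdm2 by -0.18 ± 0.17. At unadjusted p under 0.05 were 3 of 7 epithelial, 1 of 4 T cell, 1 of 3 muscle and 1 of 6 fibroblast markers tested. The median log2 fold changes of these lists were -0.30, 0.52, -0.25 and -0.01, and 0 markers were called after adjustment.

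**Figure D2:**
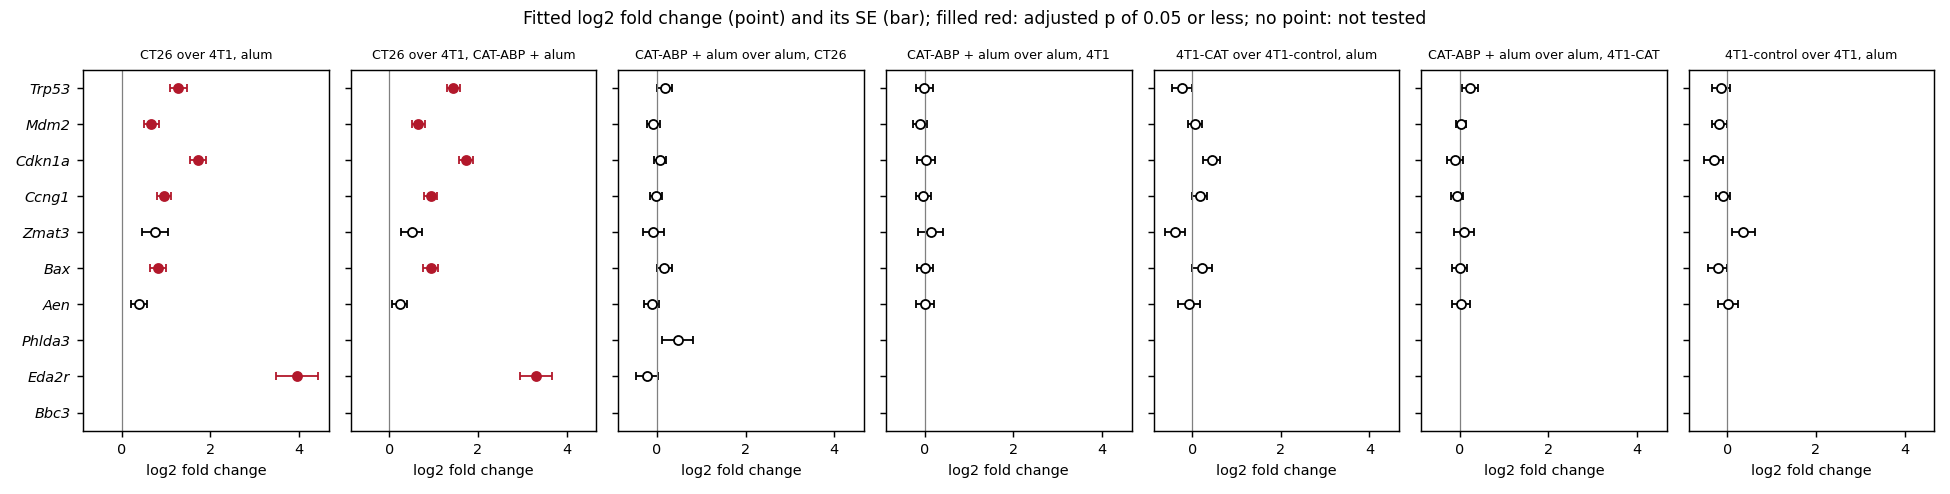
Fitted log2 fold change (horizontal axes; point) and SE (bar) of each member in the 7 comparisons of 2 groups; filled red points have an adjusted p of 0.05 or less in edgeR, and a gene without a point was below the filter on low counts. Filled points appear only in the CT26 against 4T1 panels, for 6 genes in each, and all lie to the right of 0.

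A wider list of 39 other p53 targets, grouped by what they do, was counted beside the members. On alum, 33 were tested, 8 were called higher in CT26 and 8 lower, with a median log2 fold change of -0.02 beside 0.02 over all genes. On CAT-ABP, 32 were tested, 8 were called higher and 11 lower, with a median of -0.18 beside -0.02. The shares higher were 24.2% and 25%, beside 21.3% and 21.8% of all genes, and the shares lower 24.2% and 34.4%, beside 21.1% and 23.7%. In either direction, 48.5% and 59.4% of the list were called, beside 42.4% and 45.5% of all genes.

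Of 8 arrest genes, 6 were tested, with 4 called higher in CT26 and 1 lower on alum (66.7% and 16.7%, beside 21.3% and 21.1% of all genes), and 3 higher and 1 lower on CAT-ABP (50% and 16.7%, beside 21.8% and 23.7%). The polo-like kinase gene Plk2 was higher in CT26, by 1.24 ± 0.15 and 1.17 ± 0.13 on alum and CAT-ABP (log2, SE), as was Gtse1, which escorts p53 out of the nucleus, by 1.33 ± 0.24 and 1.08 ± 0.15. Rps27l, a ribosomal protein paralog, was higher by 0.71 ± 0.25 and 0.94 ± 0.20; on alum its call was lost in 5 of 10 fits that left out a tumor, CT26 replicate 4 or 5 or 4T1 replicate 1, 2 or 4, with adjusted p up to 0.0749 in edgeR, and with technical library 1 alone (0.0519). Gadd45a, the DNA damage-induced arrest gene, was lower in CT26, at -2.31 ± 0.17 and -1.85 ± 0.24. All 10 apoptosis genes were tested, with 2 called higher and 3 lower on alum (20% and 30%), and 3 higher and 4 lower on CAT-ABP (30% and 40%), beside the same shares of all genes. The death receptor gene Fas was higher in CT26 by 0.98 ± 0.25 and 0.73 ± 0.21 and the Bax activator gene Bid by 0.98 ± 0.14 and 0.59 ± 0.12. On CAT-ABP both lost their calls with library totals alone and with technical library 2 alone, and Fas lost it with technical library 2 alone on alum too; over all alternatives adjusted p ran from 0.000283 to 0.0525 for Fas on alum, and from 0.00164 to 0.104 for Fas and 2.07e-05 to 0.125 for Bid on CAT-ABP. The desmosomal gene Perp was lower at -6.46 ± 0.29 and -7.29 ± 0.28, with 0 to 1.43 CPM in CT26 and 32.3 to 90.9 CPM in 4T1-derived tumors, and was low where the epithelial markers were low. Ei24, a gene of the endoplasmic reticulum, was lower at -1.58 ± 0.15 and -1.48 ± 0.13 and the death receptor gene Tnfrsf10b at -1.23 ± 0.20 and -0.71 ± 0.19, whose CAT-ABP call was lost with technical library 2 alone (adjusted p = 0.0687 in edgeR; 0.000153 to 0.0687 over all alternatives).

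Of 5 repair genes, all tested, 0 were called higher in CT26, while 2 were called lower on alum and 3 on CAT-ABP, or 40% and 60%, beside 21.1% and 23.7% of all genes. Ddb2, which recognizes ultraviolet damage, was lower in CT26 at -1.34 ± 0.33 and -1.42 ± 0.50 (log2, SE, on alum and CAT-ABP), and on CAT-ABP its call was lost in 5 of 12 fits that left out a tumor, CT26 replicate 3 or 4 or 4T1 replicate 2, 5 or 6, with adjusted p up to 0.0887 in edgeR, and with a replicate block (0.0627). Rrm2b, a subunit of ribonucleotide reductase, was lower at -0.78 ± 0.21 and -0.84 ± 0.23; on alum its call was lost with technical library 1 alone (-0.47, adjusted p = 0.168 in edgeR; 0.000352 to 0.168 over all alternatives). Of 11 metabolic genes, 8 were tested on alum and 7 on CAT-ABP, and 2 were called higher and 0 lower in each, or 25% and 28.6% higher, beside 21.3% and 21.8% of all genes. The epoxide hydrolase gene Ephx1 was higher in CT26 by 4.44 ± 0.32 and 4.07 ± 0.23, at 79.3 to 189 CPM against 2.05 to 10.4 CPM, and Tigar, which slows glycolysis, by 0.95 ± 0.25 and 1.03 ± 0.19, a call lost on alum with technical library 2 alone (adjusted p = 0.072 in edgeR; 0.00108 to 0.072 over all alternatives). Of 5 secreted factors, 4 were tested, with 2 called lower on alum and 3 on CAT-ABP, or 50% and 75%, and 0 higher. Of all genes, 21.1% and 23.7% were called lower and 21.3% and 21.8% higher. Lif was lower in CT26 at -1.22 ± 0.30 and -1.72 ± 0.26 and thrombospondin gene Thbs1 at -1.15 ± 0.14 and -1.46 ± 0.23. Within shared index groups on alum, Rps27l, Ddb2 and Lif missed the threshold at 0.85, -1.34 and -1.13 on 2 4T1 tumors. With index group as a block over all 10 tumors, Rps27l and Lif missed it too, at 0.86 and -1.11 (adjusted p = 0.074 and 0.0508 in edgeR). Ddb2 was called there at -1.32 (adjusted p = 0.0371 in edgeR). Lif also missed it with technical library 2 alone (adjusted p = 0.0899 in edgeR, 0.000517 to 0.0899 over all alternatives).

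Genes that p53 lowers through p21 and the DREAM repressor complex were counted as well. Of 16, all tested, 2 were called higher in CT26 and 3 lower on alum (median log2 fold change -0.05), and 3 higher and 3 lower on CAT-ABP (median 0.12). The shares were 12.5% higher and 18.8% lower, beside 21.3% and 21.1% of all genes, and 18.8% and 18.8%, beside 21.8% and 23.7%. Foxm1, a transcription factor of the G2 phase, was higher in CT26 by 1.29 ± 0.13 and 1.2 ± 0.16 (log2, SE, on alum and CAT-ABP) and the phosphatase gene Cdc25c by 0.64 ± 0.24 and 0.59 ± 0.19. The checkpoint kinase gene Chek1 was lower at -1.66 ± 0.25 and -1.69 ± 0.18, the topoisomerase gene Top2a at -0.46 ± 0.14 and -0.87 ± 0.17 and the cyclin gene Ccnb2 at -0.55 ± 0.16 and -0.34 ± 0.11. Cdc25c and Ccnb2 were at the edge: leaving out a tumor ended the Cdc25c call in 7 of 10 fits on alum (all but CT26 replicates 2 and 4 and 4T1 replicate 4) and 3 of 12 on CAT-ABP (4T1 replicates 1, 3 and 6), and the Ccnb2 call in 4 of 12 on CAT-ABP (CT26 replicate 2 and 4T1 replicates 3, 5 and 6), with adjusted p up to 0.116, 0.0632 and 0.0705 in edgeR. Within shared index groups on alum, Cdc25c, Top2a and Ccnb2 missed the threshold at 0.70, -0.46 and -0.66 on 2 4T1 tumors. With index group as a block over all 10 tumors, Cdc25c and Top2a missed it too, at 0.71 and -0.44 (adjusted p = 0.134 and 0.0731 in edgeR). Ccnb2 was called there at -0.65 (adjusted p = 0.0328 in edgeR). Of the alternatives other than leaving out a tumor, 6 of 12 on alum and 3 of 11 on CAT-ABP ended the Cdc25c call, which turned to -0.07 on CAT-ABP with technical library 2 alone, and 2 of 13 and 4 of 11 ended the Ccnb2 call, at -0.08 with the same library. Over all alternatives adjusted p ran from 0.016 to 0.289 and 0.00781 to 0.903 for Cdc25c, from 0.00092 to 0.208 and 0.000536 to 0.725 for Ccnb2, and from 3.59e-05 to 0.0975 for Top2a on alum.

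Within groups, the genes whose log2 CPM ran most alike to the members were sought over the 38 tumors after subtracting each group's mean, among 11275 genes with a mean of at least 20 counts. For Trp53 they were E2f8 (r = 0.86, rho = 0.78, r = 0.69 without the pair), Echdc3 (r = 0.84, rho = 0.65, r = 0.66 without the pair) and Trim39 (r = 0.80, rho = 0.61, r = 0.60 without the pair), where the pair is the 2 tumors farthest from the median of the member. For Cdkn1a they were Ero1a (r = 0.63, rho = 0.63, r = 0.58 without the pair), Hoxd8 (r = 0.63, rho = 0.59, r = 0.52 without the pair) and Suox (r = 0.58, rho = 0.51, r = 0.40 without the pair). For Mdm2 they were Sh3gl1 (r = 0.76, rho = 0.72, r = 0.72 without the pair), Ago2 (r = 0.74, rho = 0.64, r = 0.68 without the pair) and Rnf44 (r = 0.73, rho = 0.69, r = 0.66 without the pair). These are the top values out of 11275 for each member and are given as a description, and the tumors they rest on differed in depth.

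The promoters of 2 members are shown because they are the ones among the members that hold a p53 response element close to the gene start. Both genes were called higher in CT26, but so were Trp53, Mdm2, Bax and Eda2r, which held no element there. Promoter sequences of RefSeq (GRCm38.p6, 250 bases before to 50 after the start) were matched by symbol for 9 of the 10 members; Zmat3 had no entry. The p53 response element was searched on both strands as 2 joined half-sites of 10 bases with the core C and G letters kept and at most 1 of 20 letters off. It was found in 2 of 9 members (22.2%), in 2 of the 28 genes of the wider lists with a promoter (7.14%; Gtse1 and Rps27l) and in 22 of 27025 genes (0.0814%). In Cdkn1a (chr17:29090729-29091028, + strand) the element, in capitals, started at -51 from the gene start, and in Ccng1 (chr11:40755237-40755536, - strand) at -195. Cdkn1a had a second window (chr17:29093519-29093818), which held no element. A match describes letters and is not evidence of binding, and the windows leave out sites farther away.
Cdkn1a promoter: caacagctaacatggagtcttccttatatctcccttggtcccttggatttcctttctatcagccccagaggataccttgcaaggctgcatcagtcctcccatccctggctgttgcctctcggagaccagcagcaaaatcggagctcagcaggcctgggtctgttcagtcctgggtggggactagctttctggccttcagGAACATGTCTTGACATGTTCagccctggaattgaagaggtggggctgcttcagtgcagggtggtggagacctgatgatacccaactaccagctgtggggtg
Ccng1 promoter: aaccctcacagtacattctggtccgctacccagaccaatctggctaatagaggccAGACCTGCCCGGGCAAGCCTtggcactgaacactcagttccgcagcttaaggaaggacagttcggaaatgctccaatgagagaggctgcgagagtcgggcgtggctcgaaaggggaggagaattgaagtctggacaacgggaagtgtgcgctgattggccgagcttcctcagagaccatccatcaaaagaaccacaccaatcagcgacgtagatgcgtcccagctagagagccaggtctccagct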

How the data were processed

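The authors aligned the 3′ reads with a Smart-seq2 pipeline and deposited estimated counts per gene and library (39.7% of non-zero values not whole). For each of 38 tumors the counts of both technical libraries (46233 to 6958626 counts each) were summed and rounded. Each comparison of 2 groups was fitted over all genes passing filterByExpr with edgeR 4.0.16 in R 4.3.3 (TMM scaling, glmQLFit, glmQLFTest), and calls were made at a Benjamini-Hochberg adjusted p of 0.05 or less; SE is the log2 fold change over the root of F. DESeq2 1.42.0 was the second tool. Steps were tested on simulated data with 200 genes changed. Over the comparisons of 2 groups, edgeR recovered 10.4% to 30.4% of genes changed 1.5-fold and 56.5% to 76.4% of genes changed 2-fold. Alternatives covered scaling, filtering, model, technical libraries, low depth, blocks and leaving out each tumor; those on index groups, and those on the member levels and on the regulators called, were chosen after seeing the data. No library was left out. Members and gene lists were chosen with earlier results of these data known. All members were named in both line comparisons, and in the others Trp53, Cdkn1a, Mdm2 and the member with the largest change. Of the regulators, 6 were named. Regulators called in either line comparison were named too, after their values were seen. From each wider list, up to 4 genes per direction called in both line comparisons were named. The 3 genes most alike to Trp53, Cdkn1a and Mdm2 were also named. Genome positions are from GENCODE M21.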

Additional observations from a re-analysis of the deposited data

Results flagged for a closer look

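Each member, and the total count, was looked at in each group of 5 or 6 tumors, which made 77 sets of values. In 5 of them a single tumor lay far from the others, by the gap to its nearest neighbour over the range of the set. By chance about 1 in 20 sets would be flagged. Cdkn1a was at 19.8 CPM in 4T1-CAT replicate 5 on alum, while the others of the group lay at 15.8 to 16.5 CPM. The same tumor had the highest summed markers of the 27 4T1-derived tumors for fibroblasts (5758 CPM), macrophages (1012), neutrophils (180), T cells (79.7), endothelium (188) and muscle (407). Bax was at 4.45 CPM in 4T1 replicate 4 on CAT-ABP, a tumor of 837403 counts in which it had 4 counts, against 12.5 CPM for the next. Eda2r was at 1.44 CPM in 4T1 replicate 2 on alum, on 5 counts, against 0.518 CPM for the next. Aen was at 4.11 CPM in 4T1-control replicate 2, on 2 counts in the shallowest tumor of 493044 counts, against 19.8 CPM for the next. The total count of 4T1-CAT replicate 4 on CAT-ABP was 8709773, against 5669599 for the next. No member had all CAT-ABP tumors above all alum tumors in any line and below them in another.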

How the results depend on the processing

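The fold changes of Trp53, Cdkn1a and Ccng1 between the lines kept their direction and their call under each alternative. Those of Eda2r did so where it was tested, but it passed the filter only with CT26 tumors in the fit; it was not tested with technical library 2 alone in both comparisons or with a mean of at least 20 counts on alum. Counts that moved by more than 1.5 times, and log2 fold changes that changed sign, follow by alternative, with those of genes at unadjusted p under 0.05 last; the cause was not tested. Technical library 2 alone gave 2849 genes called between the lines on alum and 3559 on CAT-ABP, on fewer genes tested. DESeq2 called 1 gene for CAT-ABP in CT26, 6 for intracellular catalase, 266 for CAT-ABP in 4T1-CAT and 16 for 4T1-control against 4T1, where edgeR called 0. Without a filter on low counts edgeR called 1 gene for CAT-ABP in CT26, 16 for CAT-ABP in 4T1, 131 for intracellular catalase, 47 for CAT-ABP in 4T1-CAT, 130 for 4T1-control against 4T1 and 2 for the difference between the lines. For 4T1-control against 4T1, library totals alone gave 1 gene, a model over all 7 groups 10, leaving out libraries of low depth 14, and shared index groups alone 1. Leaving out 1 tumor gave 0 to 1 genes for intracellular catalase, 0 to 1 for CAT-ABP in 4T1-CAT and 0 to 6 for 4T1-control against 4T1. Members without overlap numbered 3 with library totals alone, 3 with technical library 1 alone and 1 with technical library 2 alone. The share of all genes was not counted beside them, so these numbers are not a result about the members.

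Between the lines on CAT-ABP, library totals alone gave -0.04 for Aen and -0.22 for Mdm4; technical library 2 alone gave -0.16 for Mdm4, 0.25 for Ppm1d and -0.07 for Cdc25c. Ppm1d was 0.00 with DESeq2 size factors in edgeR, 0.04 with upper quartile factors and 0.00 in the model over 7 groups. Leaving out 1 tumor spanned -0.01 to 0.13 for Mdm4 and -0.05 to 0.09 for Ppm1d. For CAT-ABP in CT26, Cdkn1a was -0.11 with technical library 2 alone and -0.01 to 0.12 on leaving out 1 tumor. For CAT-ABP in 4T1, Trp53 was 0.03 with library totals alone, 0.07 with technical library 1 alone, 0.01 without libraries of low depth, 0.04 with index group as a block and 0.04 in shared index groups. Cdkn1a there was -0.05 with technical library 1 alone, Mdm2 0.24 with technical library 2 alone, and Zmat3 -0.25 with index group as a block and -0.25 in shared index groups. On leaving out 1 tumor these 4 spanned -0.10 to 0.07, -0.07 to 0.19, -0.15 to 0.00 and -0.05 to 0.32. For intracellular catalase, technical library 1 alone gave 0.33 for Trp53 and -0.05 for Mdm2. For CAT-ABP in 4T1-CAT, Cdkn1a was 0.05 with library totals alone and Mdm2 -0.15 with technical library 2 alone, -0.03 to 0.10 on leaving out 1 tumor. For 4T1-control against 4T1, Mdm2 was 0.08 with technical library 2 alone. Same-numbered tumors of compared groups were not alike throughout, so the numbers were not taken to pair; with a replicate block, 3 genes were called for CAT-ABP in 4T1-CAT, Ppm1d was 0.03 between the lines on CAT-ABP, and Trp53 was 0.02 for CAT-ABP in 4T1. Depth limits Bbc3, Phlda3, and Eda2r in 4T1, which had few counts.

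At unadjusted p under 0.05 were 3866 genes between the lines on alum and 4454 on CAT-ABP with technical library 2 alone, which also gave 254 for CAT-ABP in 4T1-CAT and 419 for 4T1-control against 4T1. Technical library 1 alone gave 250 for CAT-ABP in 4T1, 319 for intracellular catalase and 652 for 4T1-control against 4T1. A replicate block gave 661 for CAT-ABP in CT26 and 311 for intracellular catalase, and a model over all 7 groups 533 for CAT-ABP in CT26. Without a filter on low counts, and on more genes tested, there were 10205 between the lines on CAT-ABP, 1289 for CAT-ABP in CT26, 1616 for CAT-ABP in 4T1, 1969 for intracellular catalase, 3242 for CAT-ABP in 4T1-CAT, 2641 for 4T1-control against 4T1 and 1596 for the difference between the lines. Leaving out 1 tumor spanned 224 to 789 for CAT-ABP in CT26, 250 to 478 for CAT-ABP in 4T1 and 428 to 789 for the difference between the lines.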
